A study of Homo sapiens with 5 samples.

Results

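The chemokine CXCL12 and its receptors CXCR4 and ACKR3 were followed as a ligand and receptor set in IMR32 cells, an established human neuroblastoma line. All probe sets annotated to the 3 genes (ACKR3 carries the older symbol CXCR7) were taken, which gave 8 of the 54675 probe sets on the Affymetrix Human Genome U133 Plus 2.0 array and 3 of the 19775 genes named on it. CXCL12 had 2 probe sets, CXCR4 had 3 and ACKR3 had 3. The genes were chosen from their signals on these same 5 arrays, with the time course of CXCL12 already known, so their values over time are a description and carry no test.

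Every culture carried a stably integrated, inducible short hairpin RNA directed against the MEIS1b form of MEIS1, a homeobox transcription factor. RNA was taken at 0 h without doxycycline, which switches the hairpin on, and after 24, 48, 96 and 192 h with it, with 1 array at each time point. Arrays of cells without doxycycline at a later time, or of cells with doxycycline and no hairpin, were not analysed here, so time in culture, the drug and the hairpin cannot be told apart. Whether the line is 1 clone is not given in the sources used here.

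CXCL12, also called stromal cell-derived factor, is a secreted chemokine that guides migrating cells and is held on cell surfaces and matrix by heparan sulfate. CXCR4 is its G protein-coupled signalling receptor. ACKR3 is an atypical receptor that binds the same ligand, recruits arrestin and takes the ligand up from the medium. In the embryo the CXCL12 and CXCR4 pair guides the neural crest cells that form sympathetic ganglia, the lineage from which neuroblastoma arises, and CXCR4 has been studied in the spread of this tumour to bone marrow.

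The stretches of 250 bases before the start of CXCL12 and of CXCR4 are shown because the signals of the 2 genes took different courses after induction. Both come from the RefSeq table of GRCh38.p14 and are written 5′ to 3′ on the minus strand of each gene, CXCL12 at chr10:44385098-44385347 and CXCR4 at chr2:136118150-136118399. Capitals mark matches to the GC box core GGGCGG, read on either strand, and to the TATA box core TATAAA, read on either strand.
CXCL12: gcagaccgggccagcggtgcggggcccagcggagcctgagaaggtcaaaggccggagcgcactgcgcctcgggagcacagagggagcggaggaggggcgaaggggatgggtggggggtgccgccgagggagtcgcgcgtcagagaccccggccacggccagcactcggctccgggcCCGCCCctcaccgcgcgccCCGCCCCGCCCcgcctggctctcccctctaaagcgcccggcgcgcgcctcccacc
CXCR4: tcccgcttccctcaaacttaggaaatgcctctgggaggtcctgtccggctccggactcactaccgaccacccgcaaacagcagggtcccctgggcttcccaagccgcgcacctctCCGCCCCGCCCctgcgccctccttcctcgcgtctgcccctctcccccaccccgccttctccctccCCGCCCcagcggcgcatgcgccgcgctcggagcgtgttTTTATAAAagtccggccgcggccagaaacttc

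The CXCL12 stretch held 3 GC box matches, of which 2 overlap, no TATA box match and 78% G and C. The CXCR4 stretch also held 3 GC box matches, 2 of them overlapping, and 68% G and C, with a TATAAA 30 bases before the start that overlaps a second match on the opposite strand. Of 35116 such stretches of 250 bases, 42.6% held a GC box match and 10.7% a TATA box match. The TALE factor motif TGACAG, searched on both strands, was found in 13% of all stretches and was in neither of these. The core ACGTG of the hypoxia response element, present in 18.5% of all stretches on either strand, was also in neither. RefSeq's table held 2 more CXCR4 starts, whose stretches had 0 matches to the TATA box core, the TALE factor motif and the hypoxia core and held 0 and 1 GC box matches, and the ACKR3 promoter was not analysed here. The motifs were picked after the sequences had been read.

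The authors' deposited values are log2 of the MAS5 signal, a probe set brightness from which a mismatch-based background has been subtracted. They are given below as signals on the linear scale, where 17.9 was the median of all probe sets on all arrays. Of the 8 probe sets 7 had a mean signal of at least 17.9, and the eighth, for ACKR3, was dimmer. The median signal of an array was 16.0 to 19.0, and 5.34% to 8.15% of probe sets lay at the lowest value, a signal of 1. Sympathoadrenal genes were bright throughout (7 of 8 measured markers had a mean signal of at least 17.9). MYCN was at 3957 to 4418 and GATA3 at 2681 to 3340, while TH was dim, at 2.1 to 28.5. Of the 7 markers tested, 1 rose and 0 fell. CHGA, encoding chromogranin A, rose from 998.2 to 1756 (fitted log2 change 1.04, limma adjusted p = 0.00832). DBH (fitted log2 change -0.01), MYCN (0.01), GATA3 (0.14), PHOX2A (0.62), ISL1 (0.75) and HAND2 (0.997) did not pass. Poly-A spike-in probe sets, added to the RNA before labelling, differed from 0 h by 0.10, -0.45, -0.61 and -0.25 on the log2 scale at 24, 48, 96 and 192 h. The targeted gene, MEIS1, had a signal of 1052 without doxycycline and of 786.6 to 857.0 with it in 1 probe set, which is 74.9% to 81.5% of the uninduced value, and of 597.2 without and 443.8 to 560.4 with it in another.

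CXCL12 was high in uninduced cells and low after 96 and 192 h of doxycycline. Its brighter probe set (203666_at, from NM_000609) read 198.9, 117.6, 98.6, 54.5 and 41.2 on the arrays of 0, 24, 48, 96 and 192 h, the order used for every series of 5 values here. Each array was therefore lower than the one before it. Its other probe set (209687_at, from U19495) read 191.0, 86.6, 81.2, 29.2 and 31.2. Here the 4 induced arrays were all below 0 h, and the last 2 were nearly level. No array of either probe set reached down to the median of all probe sets, so CXCL12 stayed above the dim range at 192 h.

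Ratios were taken on the log2 scale after an offset of 4.7 was added to each signal, which limits the noise of dim probe sets and understates their change. On that scale the brighter CXCL12 probe set stood at 60.1%, 50.7%, 29.1% and 22.5% of its 0 h level on the 4 induced arrays. The other stood at 46.7%, 43.9%, 17.3% and 18.3%. Both probe sets had the same pattern of steps: a drop by 24 h (log2 -0.74 and -1.10), little further change from 24 to 48 h (-0.24 and -0.09), and a second drop from 48 to 96 h (-0.80 and -1.34). From 96 to 192 h the change was -0.37 in the brighter and 0.08 in the other. The level at 0 h was 4.44 and 5.45 times that at 192 h. There is 1 array at each time, so neighbouring time points have no replicate spread to be set against.

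**Figure D1:**
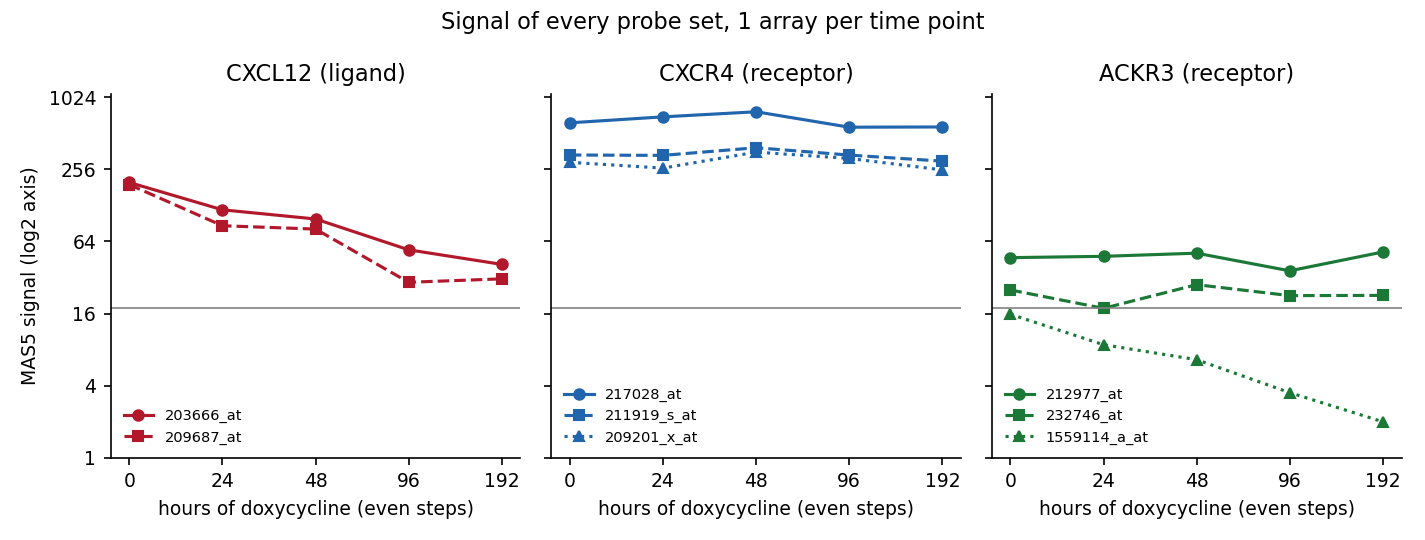
MAS5 signal (log2 axis) of all 8 probe sets against hours of doxycycline drawn as even steps, 1 point per array and 1 panel per gene; the grey line is the median of all probe sets, 17.9. Both CXCL12 lines run from above 190 to between 31.2 and 41.2, the CXCR4 lines stay between 253.2 and 774.3, and of the ACKR3 lines only the dim 1559114_a_at runs down at every step.

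A straight line over the time steps was fitted to every gene with limma (0, 24, 48, 96 and 192 h as steps 0 to 4), each gene represented by its brightest probe set, and the fitted change is what that line gains or loses over the 4 steps. Of 11943 genes with a mean signal of at least 17.9, 3.49% had a Benjamini-Hochberg adjusted p under 0.05, with 2.02% rising and 1.47% falling. CXCL12, CXCR4 and ACKR3 were chosen with their contrast in view. Their fitted changes are therefore a description, and no call is given for these 3 genes. CXCL12 had a fitted log2 change of -2.14 ± 0.24 (SE), and 0.0502% of the tested genes had a lower one. The residual SD of its brighter probe set around the line was 0.14 on the log2 scale, against a median of 0.15 over all genes. The fitted change of its other probe set, in the fit over all probe sets, was -2.53 ± 0.39 (SE). That probe set had a residual SD of 0.39, so it followed the line less closely. A signal lower at every step, as in the brighter CXCL12 probe set, was found in 260 of the 11943 genes (2.18%).

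The fitted change of CXCL12 was -2.24 to -2.02 with each array left out in turn and -2.19 once the level of the poly-A controls was a term of the model. In an RNA pool, fewer cells that express a gene and less RNA in each cell cannot be told apart. CXCL12 is also a gene of fibroblast-like stromal cells, so 9 stromal markers were read beside it. Their summed signal was 674.9 at 0 h and 610.8, 539.3, 381.2 and 342.6 at the later times. Without PDGFRA the other 8 summed to 217.6, 251.1, 242.1, 216.7 and 211.0, with no such decline. Of the 9 markers 6 had a mean of at least 17.9 and were tested, and 1 of the 6, PDGFRA, fell. PDGFRA, the alpha receptor for platelet-derived growth factor, was the brightest of them on every array and fell from 457.3 to 131.6 (fitted log2 change -1.85, limma adjusted p = 2.79e-04). ACTA2, encoding smooth muscle actin (41.3 to 63.1; fitted log2 change 0.45), THY1 (47.8 to 70.6; -0.04) and PDGFRB (37.6 to 58.5; -0.50) did not pass. The collagen genes COL1A2 (9.9 to 26.8, fitted log2 change 0.18) and COL3A1 (11.1 to 33.3, -0.49) were dim but were tested, and did not pass either. Decorin DCN (8.4 to 19.0), lumican LUM (4.7 to 12.7) and the fibroblast protease FAP (1.3 to 7.0) were dim and not tested. None of the markers lay at the lowest value, a signal of 1. Summed signals were 38.9 to 78.9 for 5 endothelial markers, 7.0 to 20.1 for 4 blood cell markers and 18.3 to 41.7 for 3 Schwann cell markers. The part of stromal-type cells in the CXCL12 values was not tested.

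CXCR4 was bright on every array and differed little between them. Its brightest probe set (217028_at) read 626.0, 702.1, 774.3, 575.6 and 578.1. The second (211919_s_at) read 337.3, 334.8, 387.9, 336.8 and 299.7, and the third (209201_x_at) 293.1, 262.2, 356.4, 315.8 and 253.2. All 3 were highest at 48 h and below their 0 h value at 192 h. At 48 h they stood at 124%, 115% and 121% of 0 h on the scale with the offset, and at 192 h at 92.4%, 89.0% and 86.6%. The highest array was 1.34, 1.29 and 1.40 times the lowest, against 4.44 and 5.77 times for the CXCL12 probe sets.

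The fitted log2 change of CXCR4 was -0.20 ± 0.17 (SE), and those of its other 2 probe sets were -0.13 ± 0.15 and -0.06 ± 0.22 (SE) in the fit over all probe sets. Its highest array lay in the middle of the course, so a straight line describes CXCR4 poorly: the fitted change was -0.50 when 0 h was left out and -0.09 when 192 h was. With 1 array per time point, these values do not show that CXCR4 was constant.

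ACKR3 gave different pictures in different probe sets. The brightest (212977_at) read 46.9, 48.1, 51.1, 36.4 and 52.3, so only the 96 h array stood apart from values within a narrow band. The second (232746_at) read 25.2, 17.7, 27.9, 22.6 and 22.7, with its lowest value at 24 h. The third (1559114_a_at, from BC038720) read 15.8, 8.8, 6.6, 3.5 and 2.0. It was lower on each array than on the one before, in the same direction as CXCL12, and it lay below the median of all probe sets at every time.

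On the scale with the offset the third ACKR3 probe set stood at 65.9%, 55.1%, 40.0% and 32.7% of its 0 h level at the 4 induced times. The brightest stood at 102%, 108%, 79.7% and 110%, and the second at 74.9%, 109%, 91.3% and 91.6%. The fitted log2 change was -0.03 ± 0.32 (SE) for the brightest, 0.01 ± 0.42 for the second and -1.58 ± 0.39 for the third, the last 2 from the fit over all probe sets. The size for the third rests on the offset: it was -2.37 with an offset of 1.175 and -0.71 with one of 18.8. The mean over all ACKR3 probe sets had a fitted change of -0.53, while the brightest alone had 0.20 with the poly-A term, 0.15 when 96 h was left out and -0.36 when 192 h was. ACKR3 therefore has no settled direction in these arrays. Which transcripts each probe set detects was not analysed here.

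**Figure D2:**
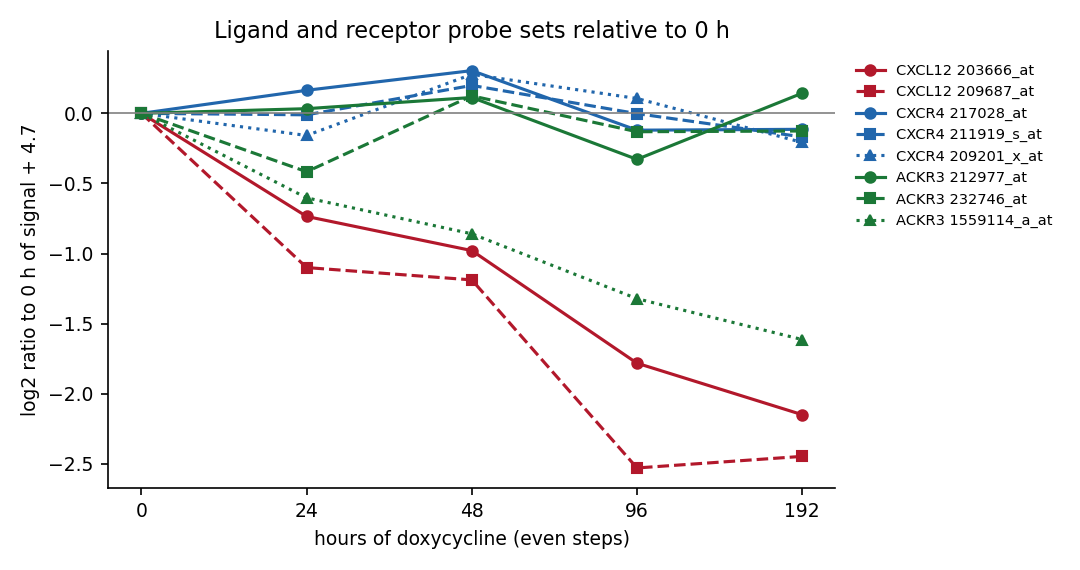
Log2 ratio to the 0 h array of signal plus 4.7 for the 8 probe sets, against hours of doxycycline drawn as even steps, 1 array per point. At 192 h the CXCL12 probe sets lie at -2.15 and -2.45 and the ACKR3 probe set 1559114_a_at at -1.61, while the other 5 lie between -0.21 and 0.14.

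Genes with the most similar course were found by the root mean square difference of the log2 ratios to 0 h over the 4 induced arrays. For CXCL12 the nearest of the tested genes were ADAMTS9, a secreted metalloprotease (difference 0.19), DOCK10 (0.22), PHLDA1 (0.27), LOC389765 (0.30) and TPBG, a membrane glycoprotein (0.34). ADAMTS9 went from 381.5 at 0 h to 246.2, 205.8, 133.9 and 73.3, and PHLDA1 from 112.6 to 57.4, 55.7, 30.7 and 32.9. Within 0.25 of CXCL12 lay 2 genes, within 0.25 of CXCR4 3742 and within 0.25 of ACKR3 3512. These counts follow from the size of the changes, since 1.60% of the tested genes had a fitted change below -1. They add no separate contrast between ligand and receptors. The nearest to CXCR4 were LOC100507053 (0.03), COQ3 (0.03), PGAM5 (0.05), CIBAR1 (0.05) and KANSL1L (0.05), and the nearest to ACKR3 were GAR1 (0.04), POT1, TBCEL and ZFAND1 (0.06 each) and KIF22 (0.07). By the brightest probe set of each gene, CXCR4 and ACKR3 were 0.20 apart from each other and 1.53 and 1.51 apart from CXCL12. The dim ACKR3 probe set 1559114_a_at did not enter these distances. Its log2 ratios to 0 h were -0.60, -0.86, -1.32 and -1.61, against -0.74, -0.98, -1.78 and -2.15 for the brighter CXCL12 probe set.

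Of the 6 genes next to CXCL12 along the chromosome, 3 were tested, and these did not share its course. In the RefSeq order its nearest tested protein-coding neighbours on chromosome 10, within 3 genes on either side, were ZNF485, ZNF32 and RASSF4, with fitted log2 changes of 0.17 ± 0.26, -0.05 ± 0.14 and -0.10 ± 0.40 (SE). ZNF32 read 376.4 at 0 h and 367.2 at 192 h. Of the 4 tested neighbours of CXCR4 on chromosome 2, HNMT had the most negative fitted change, -1.01 ± 0.42 (SE; limma adjusted p = 0.239), and the replication gene MCM6 had -0.21 ± 0.14. COPS8, beside ACKR3 on the same chromosome, had -0.03 ± 0.12. In all, 0 of the 9 tested neighbours passed the limma threshold, where 3.49% of all genes did, and 2 of the 9 had an unadjusted p under 0.05, where 17.0% of all genes did. This check was added after the data were seen.

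Of the chemokine ligands measured with a probe set of their own, CXCL12 alone had a mean signal of at least 17.9. The 36 other ligands measured had mean signals from 1.08 to 13.7 in their brightest probe set, with a median of 5.82, so 0 of 36 entered the test. The brightest were CCL19 (3.2, 19.8, 14.4, 14.9 and 16.1) and CCL28 (3.4, 13.3, 27.0, 8.4 and 13.9). CXCL11, the other chemokine that binds ACKR3, was among the dim ones. Of 20 other chemokine receptors, CCR10 alone had a mean of at least 17.9, reading 25.1 to 36.8 (fitted log2 change -0.27 ± 0.36 (SE), limma adjusted p = 0.788). CXCR4 and ACKR3 were thus, with CCR10, the receptors above that level, out of 22 measured.

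Lists of genes that make, hold, receive or pass on the CXCL12 signal were read beside the 3 genes. They hold 280 genes, of which 262 had a probe set of their own and 155 were bright enough to test. In the limma trend 5 rose and 4 fell (5.81%, against 3.49% of all genes), and the unadjusted p was under 0.05 for 24.5% of them against 17.0% of all genes. At that unadjusted level 23 of the 155 had a positive and 15 a negative change, against 8.43% and 8.55% of all genes. The counts given for each list below are to be set beside the 2.02% of all genes that rose and the 1.47% that fell. The median fitted log2 change was 0.02 in the lists and 0.00266 over all genes. Of the 9 calls 0 were kept without the variance trend of the model and 1, GRK3, with no filter on signal; other losses stand beside each gene, where equal medians means that the 5 arrays were scaled to the same median and the poly-A term that the spike-in level was in the model.

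Among molecules that hold CXCL12 at the cell surface, heparan sulfate proteoglycans and their synthesis enzymes, 0 of 22 tested genes rose and 2 fell (median fitted log2 change -0.04). GPC6, a glypican, read 649.2 at 0 h, 619.5, 453.3, 340.1 and 410.7 (-0.87 ± 0.19 (SE), limma adjusted p = 0.0295). Syndecan SDC2 read 1674, 1572, 1442, 1222 and 1204 (-0.52 ± 0.13, adjusted p = 0.0449). Both genes were lower at 96 and 192 h than at 0 or 24 h, and all 2 GPC6 and 3 SDC2 probe sets bright enough to test had a negative change. GPC3 had -0.72 and HS3ST3B1, a sulfotransferase, had 1.40, and neither passed (adjusted p = 0.0994 and 0.185). HS3ST3B1 was dim, reading 11.7, 26.5, 12.1, 35.3 and 44.0. Its signals of 11.7 and 12.1 lay below the level of the signal filter, which only its mean has to reach. Its fitted change therefore rests partly on signals in the dim range. The GPC6 call was lost without the 0 h (adjusted p = 0.188), 24 h (0.0667) or 96 h array (0.0544) and with time in hours (0.18), and with the poly-A term the change was -0.48 (0.222). That of SDC2 was lost without any 1 of the 5 arrays (0.0659 to 0.246), with equal medians (0.061), with the mean of probe sets (0.164), with time in hours (0.105) and with the poly-A term (0.141).

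No tested protease or enzyme that cuts CXCL12 passed the limma threshold (0 of 4, and 0 at an unadjusted p under 0.05). The gelatinases MMP2 (82.5 to 118.3) and MMP9 (29.9 to 42.4), the membrane protease MMP14 (21.9 to 37.2) and CTSK (143.5 to 221.6; 0.41 ± 0.20 (SE), adjusted p = 0.337) were measured. The fitted change of CTSK was 0.75 when 192 h was left out, 0.26 when 96 h was and 0.20 with the poly-A term. DPP4, which clips the ligand's first residues, was below the signal filter. Among other partners of the ligand and receptors 0 of 8 passed, with 3 at an unadjusted p under 0.05 (37.5%, against 17.0% of all genes). The 3 were ADM, EGFR and TFRC. EGFR read 19.1 to 53.8 (fitted log2 change 1.05, limma adjusted p = 0.169) and TFRC 1969 to 2435 (0.30, adjusted p = 0.257). HMGB1, which forms a complex with CXCL12, read 3930 to 6248, and MIF, another ligand of CXCR4, read 4464 to 5434. ADM, encoding adrenomedullin, a peptide that ACKR3 takes up, read 16.4, 13.4, 11.5, 19.8 and 46.2 (fitted log2 change 1.19 ± 0.54 (SE), adjusted p = 0.288). It is 1 of those 3 and reached the signal filter through its 192 h array, since the other 4 averaged 15.3, and its fitted change was 0.19 when 192 h was left out and 2.03 when 0 h was.

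Among the kinases that phosphorylate the activated receptor, GRK3 rose. This kinase, one of those known to desensitise CXCR4, read 404.0, 530.5, 595.1, 823.5 and 990.2. It was higher on every array than on the one before and rose in the limma trend by 1.28 ± 0.13 (SE) on the log2 scale (adjusted p = 4.17e-04). Its 3 probe sets all had a positive change. GRK3 kept this call without each array in turn (adjusted p 6.49e-04 to 0.0106). GRK5 read 69.9, 70.0, 65.5, 100.1 and 167.3 (1.16 ± 0.30, adjusted p = 0.0602) and GRK4 24.9 to 54.4 (0.92 ± 0.36, adjusted p = 0.212), and these did not pass. GRK2 (67.0 to 79.9) and GRK6 (94.5 to 131.1) had fitted changes of 0.13 and -0.18.

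Of the 28 tested arrestin, receptor kinase and trafficking genes, 2 rose and 0 fell (median 0.09). The second was PRKCA, protein kinase C alpha, which read 140.9, 167.8, 172.8, 214.7 and 271.3 (0.88 ± 0.17 (SE), limma adjusted p = 0.0169). Its call was lost without the 0 h (adjusted p = 0.106) or 192 h array (0.164) and with equal medians (0.067), and the mean over all PRKCA probe sets, dim ones included, had a fitted change of 0.10 (0.942). The arrestin gene ARRB1 read 159.9 to 273.3 (0.65 ± 0.19, adjusted p = 0.0944). ITCH, the ubiquitin ligase that sends CXCR4 to lysosomes, read 72.4 to 99.4 (-0.25 ± 0.24, adjusted p = 0.69).

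Among 23 tested G protein subunits 0 rose and 1 fell (median fitted log2 change -0.05). It was the gamma subunit GNG12, which read 871.0, 948.7, 786.1, 608.3 and 546.8 (-0.79 ± 0.16 (SE), limma adjusted p = 0.017). The call was lost without the 192 h array (adjusted p = 0.101), with the mean of its probe sets (0.0881) and with the poly-A term (0.0977), and its other 2 probe sets had changes of -0.91 and -0.16. The inhibitory alpha subunits through which CXCR4 signals had fitted changes of -0.62 for GNAI2 (adjusted p = 0.348), -0.27 for GNAI1 and -0.05 for GNAI3. Of 12 RGS genes, whose products switch these subunits off, 0 passed and 1 had an unadjusted p under 0.05 (8.33%, against 17.0% of all genes). RGS4 read 581.7 at 0 h and 225.9, 335.5, 305.9 and 201.0 later (-1.04 ± 0.34, adjusted p = 0.131), so its 0 h array was the highest. The fitted change of RGS4 rests on that array: it was -0.25 without it (adjusted p = 0.853), and -1.43 when 24 h was left out (0.00147). With equal medians the change was -1.15 (0.00725) and with the poly-A term -1.64 (0.0424). RGS4 thus passed in 3 of the 13 alternatives, though not as reported.

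Downstream of the receptor, 3 of 42 tested kinases, GTPases and effectors rose and 0 fell (median fitted log2 change 0.07). The phospholipase C gene PLCB1 read 542.8, 606.9, 776.3, 1031 and 985.3 (0.99 ± 0.15 (SE), limma adjusted p = 0.00458). PLCB4 read 340.5, 353.1, 345.4, 473.1 and 546.1 (0.71 ± 0.17, adjusted p = 0.0379). TIAM1 read 521.4, 518.4, 569.2, 704.4 and 831.1 (0.71 ± 0.15, adjusted p = 0.0193). All 3 were higher at 96 and 192 h than at any earlier time. The call was lost for PLCB1 without the 0 h array (adjusted p = 0.0528), for TIAM1 without the 96 h (0.0516) or 192 h array (0.163), and for PLCB4 without the 0 h (0.0736), 24 h (0.0725), 96 h (0.0972) or 192 h array (0.25). With equal medians the adjusted p was 0.127 for TIAM1 and 0.165 for PLCB4, with the poly-A term 0.0623 and 0.0797, and with the mean of probe sets 0.0574 for PLCB4. The kinases AKT1 (376.1 to 583.6), SRC (111.7 to 133.6) and PTK2 (596.8 to 778.0) had fitted changes of 0.25, -0.18 and -0.30 and did not pass.

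Of 15 tested transcription factors and cofactors that have been tied to CXCL12 or CXCR4, 0 rose and 1 fell (median fitted log2 change -0.12). A negative change at an unadjusted p under 0.05 was found in 5 of the 15, against 8.55% of all genes. The 5 were NFKB1, NFKB2, ETS1, TWIST1 and MEIS1, the last being the target of the hairpin itself (-0.33, adjusted p = 0.251). In the other direction 1 gene, EBF3, had an unadjusted p under 0.05, against 8.43% of all genes. Its fitted change was 0.43 (limma adjusted p = 0.204). In either direction the share was 40%, against 17.0% of all genes, in a list chosen with earlier results of these data known. NFKB1 read 153.0, 148.6, 124.0, 108.5 and 88.0 (-0.79 ± 0.20 (SE), limma adjusted p = 0.0498), lower at each step; the call was lost without any 1 of the 5 arrays (0.065 to 0.229), with the larger offset (0.0516), with the mean of probe sets (0.0547), with time in hours (0.0658) and with the poly-A term (0.155). ETS1 read 93.5, 64.3, 59.4, 26.8 and 41.0 (-1.34 ± 0.36, adjusted p = 0.0697) and TWIST1 1336, 1489, 1199, 1100 and 945.6 (-0.57 ± 0.15, adjusted p = 0.0559), without passing. HIF1A, which activates CXCR4 in low oxygen, read 2117 to 2463, with a fitted change of 0.09 ± 0.14.

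**Figure D3:**
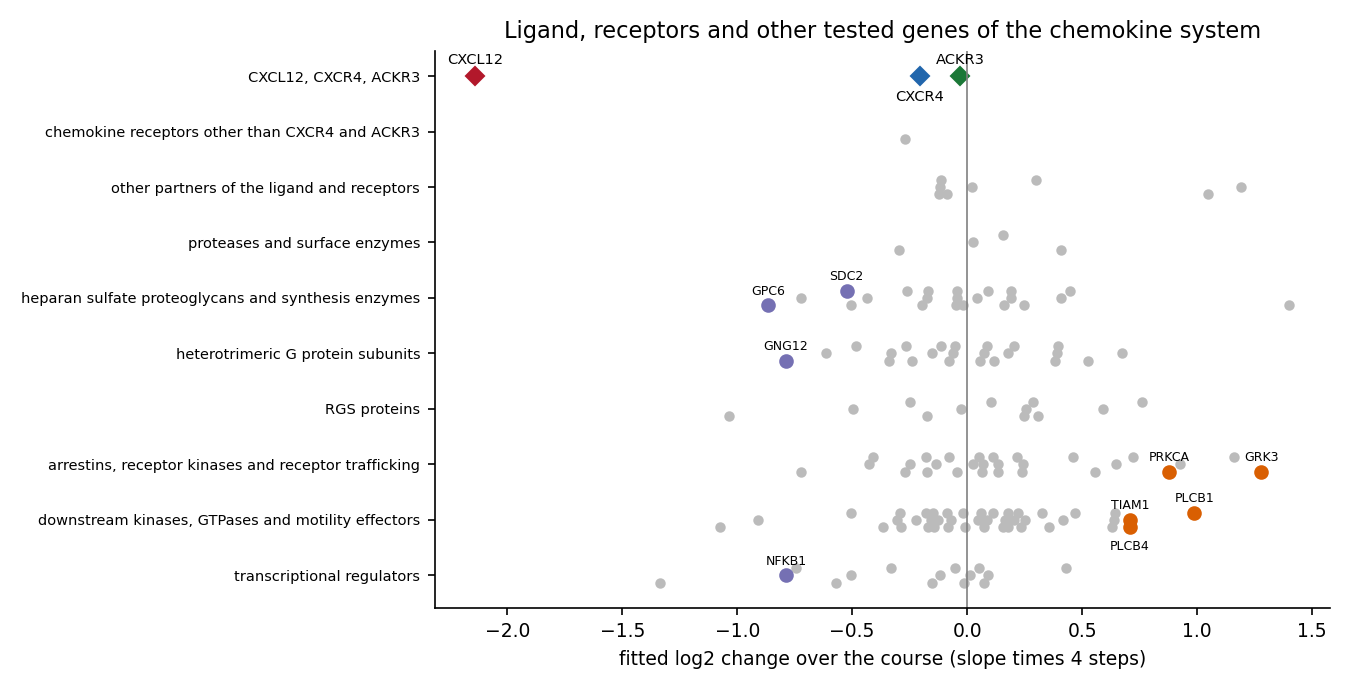
Fitted log2 change over the course for CXCL12, CXCR4 and ACKR3 (diamonds) and for the tested genes of 9 of the lists (1 dot per gene, placed by list); orange dots rose and purple dots fell in the limma trend, grey dots did not pass. CXCL12 at -2.14 lies below every other gene drawn, of which the lowest is at -1.34.

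**Figure D4:**
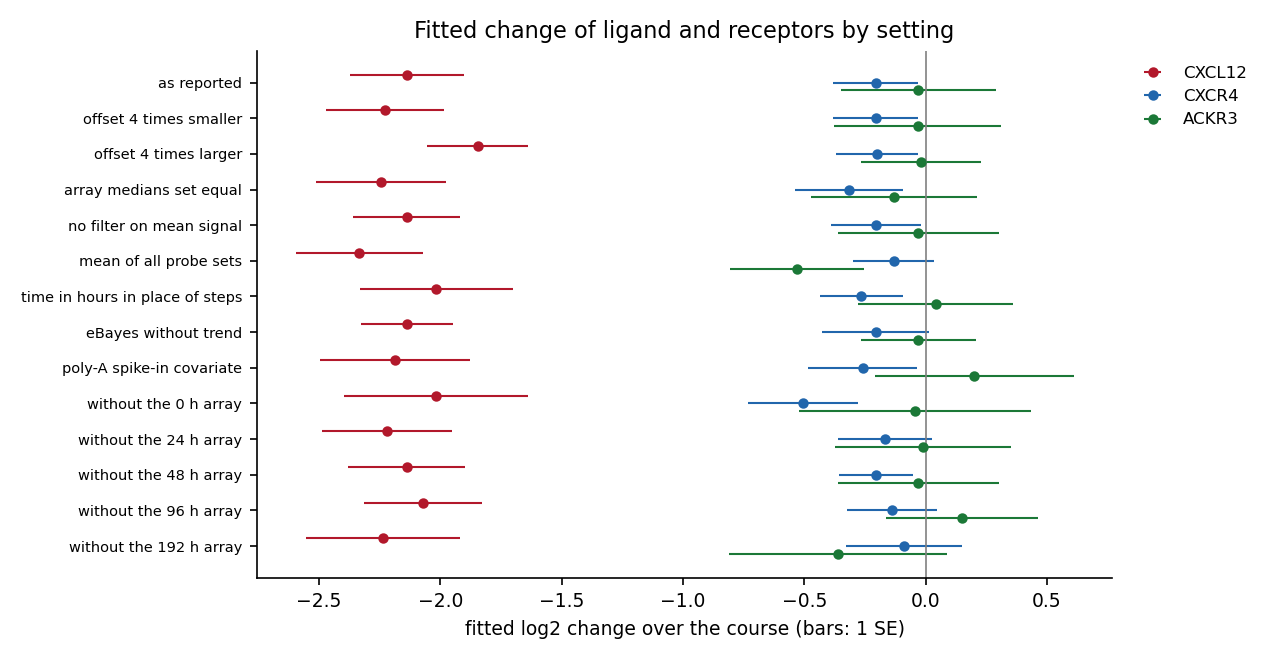
Fitted log2 change of CXCL12, CXCR4 and ACKR3 (bars are 1 SE) as reported and under 13 other settings of offset, scaling, filter, probe set choice, time axis, variance model, covariate and arrays used. CXCL12 lies between -2.33 and -1.85 in all of them, CXCR4 between -0.50 and -0.09, and ACKR3 on both sides of 0, between -0.53 and 0.20.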

How the data were processed

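Total RNA of 5 IMR32 cultures was hybridised to 1 array each. The authors' deposited values are log2 of the MAS5 signal; MAS5 and GCOS are named per the submitters' processing notes, without versions. The log base and the floor at a signal of 1 were inferred here: made linear, 100% of them are multiples of 0.1 (tolerance 0.01). The table names no genome build. GEO's platform annotation gave 1 gene for 41091 probe sets.

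Signals were made linear, 4.7 was added (the middle value of the 5 arrays' 25th percentiles) and log2 was taken. Control probe sets were left out. A gene was represented by its probe set with the highest mean. The 11943 genes with a mean of at least 17.9 were fitted with limma 3.58.1 in R 4.3.3. The model was a trend on time step (eBayes with trend, two-sided, 3 residual degrees of freedom). It was run first on simulated data with independent noise. The pass rule there covered the fitted slope and not the share of false calls. With 1 array per time point a p-value reads only scatter about the line, which may be technical, and 5 arrays limit the precision. Rose and fell mean an adjusted p under 0.05. The members and lists were chosen with earlier results of these data known. Genes were named if past the threshold in a list, if largest in a list with no call, or if among the 5 nearest to a member in course; marker, neighbour and other list genes were named after their values were seen, and the count of genes lower at every step was added then too. 13 alternatives were run.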

Additional observations from a re-analysis of the deposited data

How the results depend on the processing

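CXCL12 kept a negative fitted log2 change under all 13 alternatives, from -2.33 to -1.85, the last with an offset 4 times larger; left-out arrays gave -2.24 to -2.02. CXCR4 was negative in 13, from -0.50 to -0.088, both from left-out arrays. ACKR3 was negative in 10 and positive in 3; the mean of all its probe sets gave -0.53 and left-out arrays -0.36 to 0.15. The number of genes past the threshold, 417, was 21 with no filter on signal, 156 with the mean of a gene's probe sets, 22 without the variance trend, 230 with the spike-in covariate and 190 to 416 with arrays left out. With array medians set equal the median of all genes moved to -0.11 and 43.5% of calls rose, against 57.8%. Of the chemokine system genes, 5 rose and 4 fell as reported. With no filter 1 rose and 0 fell, with the mean of probe sets 3 and 1, without the variance trend 0 and 0; 3 rose with equal medians, and 1 fell with time in hours. Arrays left out gave 2 to 6 that rose and 1 to 2 that fell. The 9 named calls kept their sign in all 13 alternatives. At other settings than left-out arrays, 0 (no variance trend) to 9 (smaller offset) of the 9 passed, with 3 under the spike-in covariate, and GRK3 passed in 12 of 13 (adjusted p = 0.0516 without the variance trend). No paired analysis was possible because each time point has 1 array and the labels give no replicate numbers. Signals of the ACKR3 probe set 1559114_a_at near the floor limit how its change can be read.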
